A study of Homo sapiens with 16 samples.

Results

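The genes for the chains of integrins and laminins were followed through 16 RNA libraries of H1299 and HBE, a pair of human lung cell lines. Members were taken by gene symbol: the numbered and lettered integrin alpha chains, the integrin beta chains and the laminin alpha, beta and gamma chains. This gave 38 of the 23709 genes in the files, of which 12 code for laminin chains, 18 for integrin alpha chains and 8 for integrin beta chains. The choice went by symbol and not by level, but it was made with earlier results of these data known. H1299 is a lung cancer line of the non-small cell type; it received either an empty pCMV-N-Flag plasmid (vector) or that plasmid with FLII inserted. FLII codes for flightless I, a relative of gelsolin that remodels actin. HBE, a line named for human bronchial epithelium, had been stably transduced with lentiviral short hairpin RNA against FLII (FLII knockdown) or carried the control that the labels call NC. Both lines were at passage 15 to 18 and are labelled as epithelial lung cells. The labels say neither how the NC control was made nor how many hairpins or clones the stable knockdown holds. Each of these cell groups gave an mRNA library, a cytosol library, a nuclear library and a library of RNA pelleted with ribosome-nascent chain complexes (RNC). There was 1 library per group, so there was no replicate check and no p-value. Each fold below compares libraries, and its 95% interval covers counting error only.

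Integrins are cell surface receptors built from 1 alpha and 1 beta chain, and laminins are basement membrane proteins built from 1 alpha, 1 beta and 1 gamma chain. The alpha chain largely decides what an integrin binds: ITGA3, ITGA6 and ITGA7 serve laminin receptors, ITGA1, ITGA2, ITGA10 and ITGA11 collagen receptors, and ITGA5, ITGA8, ITGAV and ITGA2B receptors for proteins such as fibronectin and vitronectin. In stratified and airway epithelium, ITGA6 pairs with ITGB4 in the hemidesmosome, which anchors basal cells to a laminin that holds LAMA3 and LAMB3. These chains are all made at the endoplasmic reticulum as membrane or secreted proteins.

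FLII was read first because it checks the labels. In H1299 mRNA it stood at 143 RPKM (reads scaled for transcript length and library total) with vector and at 625 with FLII overexpression, in cytosol at 70.1 and 210, and in nuclear RNA at 67.6 and 252. In HBE it stood at 75.3 RPKM with NC and 13.8 with knockdown in mRNA, at 62.6 and 8.23 in cytosol, and at 86.7 and 11.2 in nuclear RNA. The RNC libraries went against their labels in H1299, with 89.2 RPKM in the library labelled vector and 5.61 in the library labelled FLII overexpression. In HBE they stood at 36.5 RPKM in the library labelled NC and 30.0 in the library labelled knockdown. The RNC libraries are therefore kept apart at the end and named by their labels. Reads assigned to genes totalled 5943676 to 8344359 per mRNA library, 5914489 to 9259569 per cytosol library, 6295282 to 8201848 per nuclear library and 26711771 to 38514467 per RNC library.

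The 11 basal epithelial markers, which include KRT5, KRT14 and TP63, summed to 6430 to 8770 CPM (reads scaled for library total only) in the mRNA, cytosol and nuclear libraries of HBE and 51.7 to 152 in those of H1299. The sums of the 7 mesenchymal markers, which include VIM and ZEB1, ran the other way, from 92.3 to 341 CPM in HBE and from 1660 to 7920 in H1299. Not all members of that list did: SNAI2 was called higher in HBE NC than in H1299 vector in mRNA, cytosol and nuclear RNA, where 6, 5 and 5 were called lower. So H1299, though labelled epithelial, was low in these epithelial markers. The H1299 FLII overexpression cytosol library held more of them (151 CPM) than the H1299 vector cytosol library (51.7 CPM). The 6 leukocyte markers summed to 5.48 to 34.1 CPM over the 16 libraries, with 1 to 3 of them at 10 reads or more in each. Of these, PTPRC was at 0 in 10 of the 16, CD14 was called higher in HBE NC than in H1299 vector mRNA and CORO1A lower. In bulk RNA, fewer cells of a type and less RNA per cell cannot be told apart.

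Integrin and laminin chains took more of the HBE reads than of the H1299 reads. Their share was 0.351% and 0.346% of all gene reads in H1299 mRNA (vector and FLII overexpression) and 0.902% and 0.879% in HBE mRNA (NC and knockdown). In nuclear RNA it was 0.228% and 0.239% in H1299 against 0.639% and 0.695% in HBE, and in cytosol 0.0714% and 0.0818% against 0.213% and 0.228%. In mRNA, nuclear RNA and cytosol alike both HBE libraries lay above both H1299 libraries. Of these kinds of RNA, cytosol had the lowest share within each line.

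**Figure D1:**
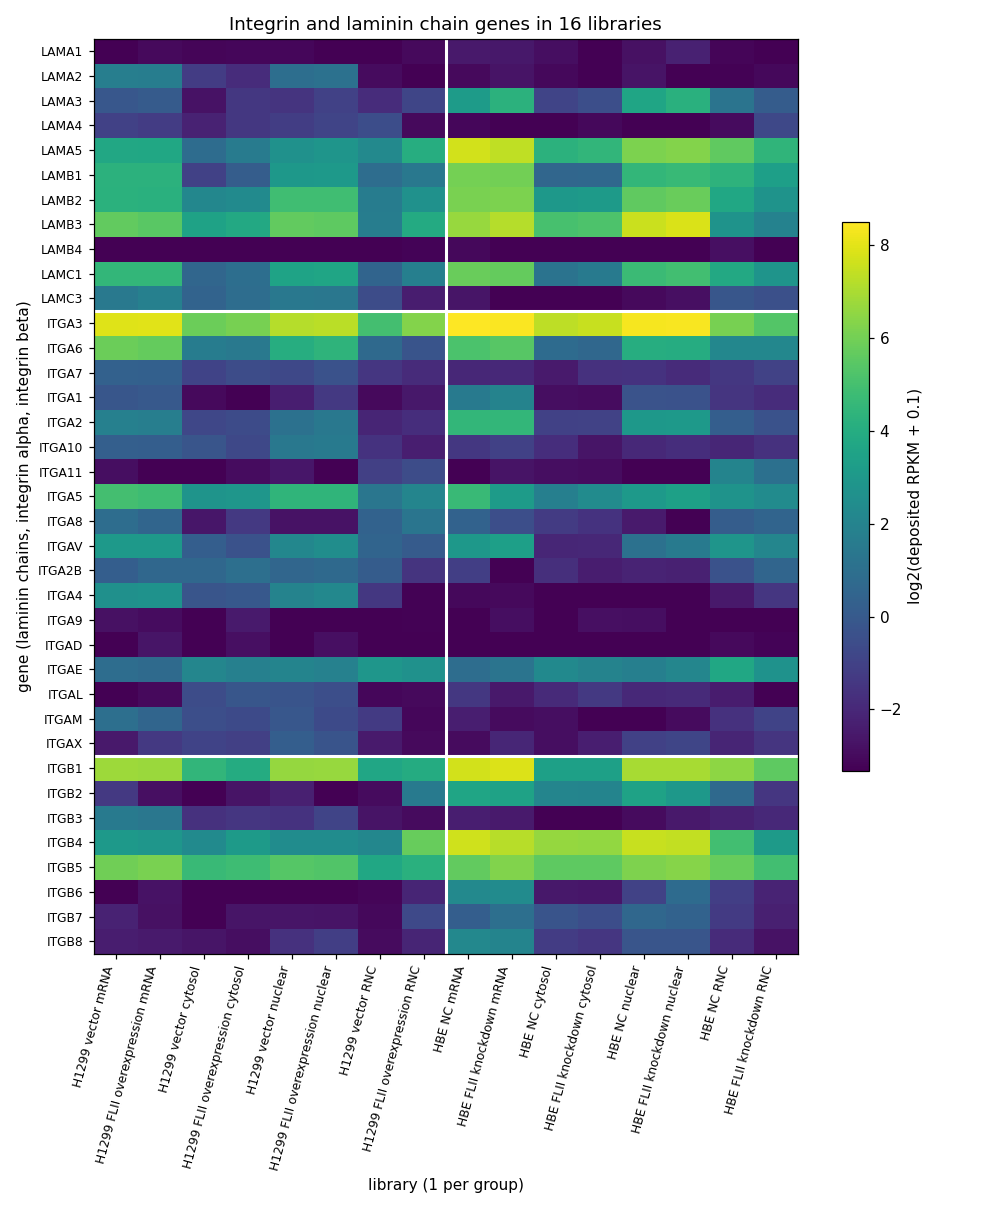
Heat map of log2(deposited RPKM + 0.1) for the members described (rows; laminin chains, integrin alpha and integrin beta chains, split by white lines) in 16 libraries (columns, 1 per group; H1299 left and HBE right of the white line). ITGA3 is bright in all columns, ITGB4 and LAMA5 are bright in HBE, and LAMA2 and ITGA4 are dark in all HBE mRNA, cytosol and nuclear libraries.

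Which chains each line makes can be read by setting the HBE NC library over the H1299 vector library in each kind of RNA. A gene with at least 20 reads over a pair was called when its TMM-scaled change reached 2-fold either way with an interval that left out no change. In mRNA 14 of 30 members with enough reads were called higher in HBE and 8 lower, where 22.4% and 21.2% of all genes tested were called (43.6% either way). In cytosol 12 of 25 were higher and 7 lower (22.2% and 26.7% of all genes, 48.9% either way), and in nuclear RNA 15 of 29 were higher and 9 lower (23.1% and 22.3%, 45.3% either way). Members were thus called higher in HBE more often than the background in each, and called lower at shares nearer the background. With total counts in place of TMM the cytosol calls became 9 higher and 10 lower, while all genes tested moved from a median log2 fold of -0.13 to -0.60 and from 45.4% to 28.3% higher among calls. The mRNA medians of all genes moved from 0.01 to -0.25 (51.3% to 40.2% higher) and the nuclear ones from 0.03 to -0.21 (50.9% to 40.4%), with 13 higher and 8 lower members in mRNA and 13 and 10 in nuclear RNA.

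Of 24 members with enough reads in all 3 kinds of RNA, 9 were called higher in HBE each time: LAMA3, LAMA5, LAMB1, LAMB2, LAMB3, LAMC1, ITGB2, ITGB4 and ITGB8. The same held for 13.9% of all genes with enough reads. LAMA2, LAMC3, ITGA10, ITGA2B, ITGA4 and ITGAM were called lower each time, 6 members where the share of all genes was 13.1%. Over all 12 mRNA, cytosol and nuclear libraries, 33 members reached 60 reads in sum. For 8 of them (LAMA5, LAMB3, ITGA3, ITGB2, ITGB4, ITGB6, ITGB7 and ITGB8) each HBE library lay above each H1299 library, as for 14.2% of all genes. For 9 (LAMA2, LAMA4, LAMC3, ITGA7, ITGA10, ITGA2B, ITGA4, ITGAM and ITGB3) each H1299 library lay above, as for 13.9%. The other 16 overlapped. LAMA1, LAMB4, ITGA9, ITGA11 and ITGAD stayed under the read minimum. With total counts the numbers were 5 above in HBE and 9 in H1299, out of the same 33.

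**Figure D2:**
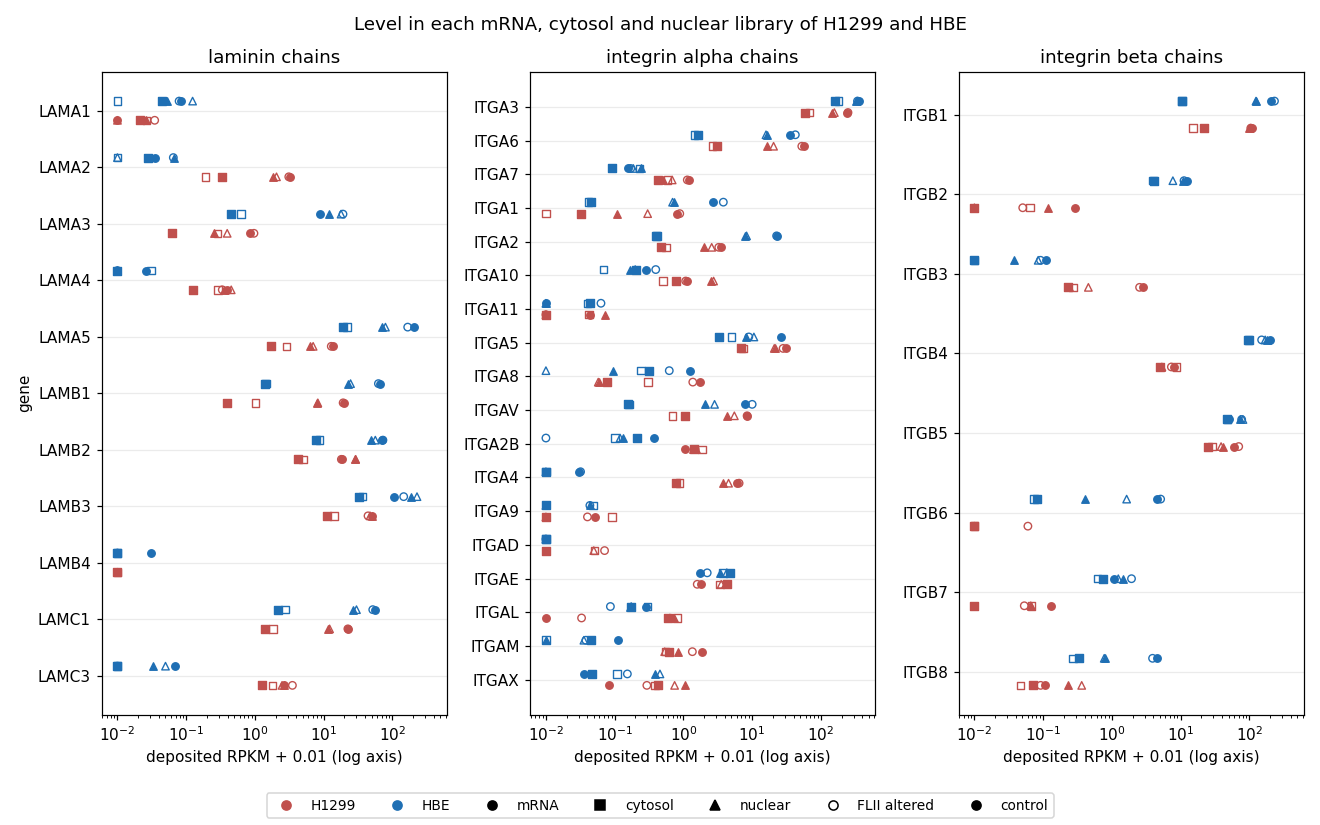
Deposited RPKM + 0.01 on a log axis for each gene described (rows) in the mRNA (circles), cytosol (squares) and nuclear (triangles) libraries of H1299 (red) and HBE (blue). Filled symbols are control libraries and open symbols FLII-altered ones. For ITGB4 all 6 HBE libraries, at 96.1 to 199 RPKM, lie right of all 6 H1299 libraries, at 5.00 to 8.63.

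Among laminin alpha chains, LAMA5, the alpha chain of most adult epithelial and vascular basement membranes, led in both lines. In H1299 its level was 13.7 RPKM (vector) and 12.9 (FLII overexpression) in mRNA, 1.72 and 2.89 in cytosol, and 6.26 and 7.02 in nuclear RNA. In HBE it was 209 (NC) and 167 (knockdown) in mRNA and 71.3 and 79.2 in nuclear RNA, and in cytosol it was lowest with NC, at 19.2 RPKM, from 1297 reads against 1652 with knockdown. The lowest HBE value lay above the highest H1299 value, and the log2 fold of NC over vector in mRNA was 4.20 (4.10 to 4.30). LAMA3, the alpha chain of the hemidesmosomal laminin, had 0.833 and 0.958 RPKM in H1299 mRNA and 8.79 and 19.1 in HBE mRNA (log2 fold of the controls 3.65, 3.26 to 4.10). In nuclear RNA LAMA3 stood at 0.242 and 0.385 against 12.1 and 17.9 RPKM. Its HBE cytosol levels, 0.435 and 0.622, lay below its H1299 mRNA levels, but within cytosol LAMA3 was called higher in HBE NC than in H1299 vector too.

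LAMA2, the alpha chain of muscle and nerve basement membranes, ran the other way. It had 3.23 and 3.10 RPKM in H1299 mRNA, 0.323 and 0.182 in cytosol and 1.85 and 2.05 in nuclear RNA, against at most 0.0563 in any HBE mRNA, cytosol or nuclear library. Its log2 fold of NC over vector in mRNA was -6.41 (-9.81 to -4.88), from 2 against 186 reads. Over the mRNA, cytosol and nuclear libraries LAMA4, an alpha chain of vessel walls, was low in H1299 (0.117 to 0.442 RPKM) and had 0 or 1 read in each of HBE. LAMA1, the embryonic alpha chain, had 0 to 9 reads in each of these 12 libraries.

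The common beta and gamma chains were found in both lines. LAMB3, the beta chain of the hemidesmosomal laminin, led the beta chains in all 12 libraries, with 43.4% of summed laminin beta RPKM in HBE NC mRNA as its lowest share and 78.3% in HBE cytosol as its highest. Its log2 folds of NC over vector were 1.29 (1.20 to 1.39) in mRNA, 2.04 (1.87 to 2.21) in cytosol and 2.15 (2.07 to 2.24) in nuclear RNA. LAMB1 and LAMB2, the beta chains of the more widespread laminins, stood at 19.5 and 18.4 RPKM in H1299 vector mRNA and at 66.3 and 69.7 in HBE NC mRNA. LAMB4 had at most 1 read in any of the 12. LAMC1, the common gamma chain, stood at 22.3 and 55.2 RPKM in these mRNA libraries (log2 fold 1.58, 1.48 to 1.68). Over the same 12 libraries LAMC3 was seen at 1.24 to 3.50 RPKM in H1299 and at no more than 0.0594 in HBE.

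Start regions are shown for 5 of the members called the same way between the control libraries of the lines in mRNA, cytosol and nuclear RNA, 3 called higher in HBE and 2 called lower. RefSeq start windows (GRCh38.p14) were at hand for 26 of the 38 genes, with 33 starts. The 250 bases before the start are printed 5′ to 3′ on the gene's strand, with TGANTCA (the AP-1 type motif) and GGGCGG (the GC box) in capitals on either strand, so that CCGCCC is GGGCGG on the other strand. The LAMB3 start is the 1 of its 3 that holds TGANTCA.
LAMA3, chr18:23872770-23873019 (plus strand): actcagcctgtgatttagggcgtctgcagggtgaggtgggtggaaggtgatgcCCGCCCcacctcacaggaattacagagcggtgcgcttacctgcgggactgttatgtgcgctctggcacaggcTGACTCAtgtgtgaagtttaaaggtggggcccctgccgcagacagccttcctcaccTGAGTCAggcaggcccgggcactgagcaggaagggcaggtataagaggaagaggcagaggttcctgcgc
LAMB3, chr1:209651375-209651624 (minus strand): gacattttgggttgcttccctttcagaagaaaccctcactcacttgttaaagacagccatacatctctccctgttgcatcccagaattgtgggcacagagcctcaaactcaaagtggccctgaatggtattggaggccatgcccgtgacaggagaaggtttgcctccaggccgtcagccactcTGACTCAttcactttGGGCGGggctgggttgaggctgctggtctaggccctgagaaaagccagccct
LAMA5, chr20:62367313-62367562 (minus strand): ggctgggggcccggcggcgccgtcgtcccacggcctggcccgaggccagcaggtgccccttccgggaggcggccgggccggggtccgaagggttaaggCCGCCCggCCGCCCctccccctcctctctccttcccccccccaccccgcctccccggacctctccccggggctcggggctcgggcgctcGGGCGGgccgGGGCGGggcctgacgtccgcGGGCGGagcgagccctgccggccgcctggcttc
LAMA2, chr6:128882888-128883137 (plus strand): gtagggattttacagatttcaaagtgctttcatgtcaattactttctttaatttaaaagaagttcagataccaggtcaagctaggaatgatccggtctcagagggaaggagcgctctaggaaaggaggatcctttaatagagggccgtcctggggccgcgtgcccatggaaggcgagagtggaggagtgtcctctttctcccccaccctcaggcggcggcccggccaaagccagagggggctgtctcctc
ITGA4, chr2:181457136-181457385 (plus strand): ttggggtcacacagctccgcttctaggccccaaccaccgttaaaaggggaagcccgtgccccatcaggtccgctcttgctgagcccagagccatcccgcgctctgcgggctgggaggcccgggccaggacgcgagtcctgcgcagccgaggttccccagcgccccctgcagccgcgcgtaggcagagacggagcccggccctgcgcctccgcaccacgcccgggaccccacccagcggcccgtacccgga
TGANTCA was found before 2 of the 33 member starts, at LAMA3 (2 matches) and LAMB3 (1 match), and before 6.57% of 35114 starts of all genes. GGGCGG was found before 17 member starts of 14 genes and before 42.6% of all starts. LAMA5 held 5 matches of it, and no match to either motif was found for LAMA2 and ITGA4 in these windows. Of the other members called lower each time, ITGAM held 2 matches of GGGCGG, ITGA10 and ITGA2B held none, and LAMC3 had no window. A match is a description of letters, and binding was not measured here.

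ITGA3, the alpha chain of the main epithelial laminin receptor, was the most abundant integrin alpha transcript in all 12 libraries. It made up 67.7% of the summed alpha chain RPKM in H1299 vector mRNA, 78.6% in HBE NC mRNA and 93.4% in HBE NC cytosol. Its levels were 244 and 248 RPKM in H1299 mRNA, 58.0 and 67.8 in cytosol and 146 and 157 in nuclear RNA, against 363 and 341, 161 and 180, and 322 and 337 in HBE. On TMM-scaled counts each HBE library lay above each H1299 library, though the mRNA fold of the controls (log2 0.84, 0.80 to 0.88) was under the threshold. ITGA6, the hemidesmosome partner of ITGB4, stood at 57.4 and 52.8 RPKM in H1299 mRNA and 35.1 and 42.5 in HBE mRNA, at 3.05 and 2.65 against 1.63 and 1.44 in cytosol, and at 16.5 and 20.5 against 16.2 and 15.9 in nuclear RNA. Its log2 folds of NC over vector were -0.44 (-0.54 to -0.35), -0.43 (-0.90 to 0.01) and 0.22 (0.06 to 0.38), none of them called. ITGA7, a muscle laminin receptor chain, was low in both lines, at 0.418 to 1.18 RPKM in H1299 and 0.0818 to 0.231 in HBE over the 12 libraries.

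Among collagen receptor chains, ITGA2 was the highest in HBE mRNA, at 22.9 and 22.7 RPKM against 3.47 and 3.26 in H1299 (log2 fold 2.98, 2.75 to 3.23). In cytosol ITGA2 stood at 0.464 and 0.547 RPKM in H1299 and 0.385 and 0.403 in HBE, with an interval on both sides of no change (log2 fold 0.19, -0.71 to 1.06). ITGA1 stood at 0.807 and 0.875 RPKM in H1299 mRNA and 2.72 and 3.80 in HBE mRNA. ITGA10, a chain known from cartilage, was called lower in HBE in all 3 kinds of RNA, with 0.496 to 2.74 RPKM over the H1299 libraries and 0.0587 to 0.386 over the HBE ones. ITGA11 had at most 2 reads in each of the 12 libraries.

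Among the remaining alpha chains, ITGA5, the fibronectin receptor chain, stood at 31.2 and 28.2 RPKM in H1299 mRNA and at 26.1 (NC) and 8.93 (knockdown) in HBE mRNA. ITGAV, the chain shared by vitronectin receptors, stood at 8.37 and 8.44 against 7.78 and 10.0 in mRNA, but in cytosol at 1.04 and 0.683 against 0.144 and 0.151. ITGA4, a chain of leukocyte receptors for VCAM1 and fibronectin, was nearly absent from HBE: it had 219 and 327 reads in H1299 mRNA, 43 and 33 in cytosol and 145 and 177 in nuclear RNA, against 1 read in each HBE mRNA library and 0 in each HBE cytosol and nuclear library. The fold of ITGA4 in the control nuclear libraries was at least 47.6-fold lower in HBE, with the same floor for 0, here 3 counts. ITGA2B, the platelet chain, was called lower in HBE in all 3, at 1.06 to 1.87 RPKM in H1299 and 0 to 0.362 in HBE. ITGA8, ITGA9 and the leukocyte chains ITGAD, ITGAE, ITGAL, ITGAM and ITGAX stayed under 5 RPKM in each of the 12. Of these, ITGAE, which pairs with ITGB7 to bind E-cadherin, stood at 1.58 to 4.25 RPKM in H1299 and 1.75 to 4.82 in HBE. In H1299 vector mRNA ITGAM, at 1.88 RPKM, lay beside ITGAE, at 1.79.

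The mix of beta chains differed between the lines. In H1299 vector mRNA, ITGB1, the partner of most alpha chains, held 60.3% of the summed beta chain RPKM, ITGB5 33.4% and ITGB4 4.49%. In HBE NC mRNA the shares were 43.4% for ITGB1, 41.3% for ITGB4 and 10.6% for ITGB5. In HBE NC cytosol ITGB4 held 61.3%, ITGB5 29.0% and ITGB1 6.41%. ITGB4 stood at 8.13 and 7.33 RPKM in H1299 mRNA, 5.00 and 8.63 in cytosol and 5.23 and 5.33 in nuclear RNA, against 199 and 151, 99.1 and 96.1, and 180 and 170 in HBE. Its log2 folds of NC over vector were 4.87 (4.71 to 5.05), 4.77 (4.60 to 4.96) and 5.34 (5.14 to 5.56) in these 3 kinds of RNA. ITGB4 was thus far higher in HBE in each kind of RNA, while its partner ITGA6 was called in none.

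**Figure D3:**
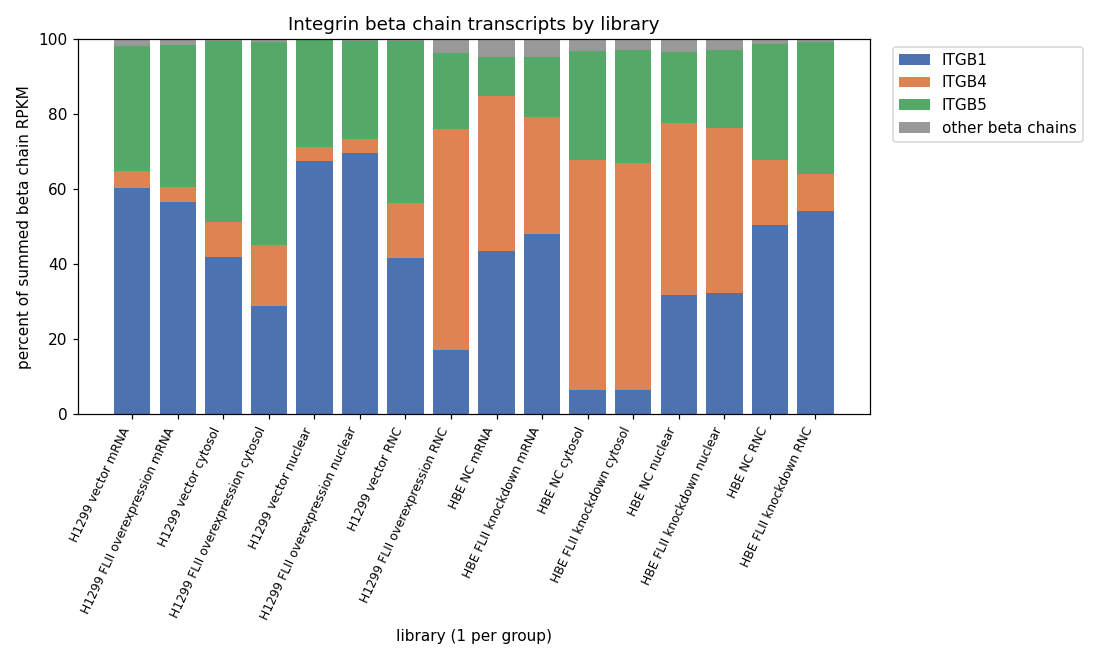
Stacked bars of the percentage of summed integrin beta chain RPKM held by ITGB1, ITGB4, ITGB5 and the other beta chains in each of 16 libraries (1 per group). ITGB4 rises from 4.49% in H1299 vector mRNA to 41.3% in HBE NC mRNA, and ITGB1 falls to 6.41% in HBE NC cytosol. Among RNC libraries, ITGB4 is highest in the one labelled H1299 FLII overexpression.

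The less abundant beta chains also differed. ITGB2, the leukocyte beta chain, had 0 to 5 reads in each mRNA, cytosol or nuclear library of H1299 and 72 to 303 in each of HBE. ITGB6, an epithelial chain that with ITGAV activates latent TGF-beta, had 91 reads in HBE NC mRNA and 0 in H1299 vector mRNA, at least 26.2-fold higher when the floor of 3 counts stands for 0. ITGB8, which shares that role, stood at 4.54 and 3.90 RPKM in HBE mRNA and 0.0958 and 0.0819 in H1299 (log2 fold of the controls 5.71, 4.60 to 7.47). ITGB7 stood at 1.05 and 1.92 RPKM in HBE mRNA and 0.121 and 0.0432 in H1299. ITGB3, the partner of ITGA2B and ITGAV, was the 1 beta chain above in H1299, with 2.82 and 2.52 RPKM in mRNA against 0.0988 and 0.0816. ITGB5 stood at 60.5 RPKM in H1299 vector and 50.8 in HBE NC mRNA (log2 fold 0.01, -0.10 to 0.13), but was called higher in HBE in cytosol (1.35, 1.21 to 1.49) and nuclear RNA (1.08, 0.97 to 1.20).

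The genes whose log2 levels over the 12 libraries were most like those of ITGB4 were ITGB2, ITGB7 and LAMA5. Because the libraries fall into the 2 lines, only within-line values of Pearson's r are given, with 6 libraries each and sharing of fractions: ITGB2 had 0.34 in HBE and 0.13 in H1299, ITGB7 -0.17 and 0.32, and LAMA5 -0.10 and -0.34. Within HBE alone the highest r among the members was that of ITGA3, at 0.75, which in H1299 was -0.47.

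Other genes of adhesion showed a mixed picture. Of 25 membrane and matrix partners, 23 had enough reads in mRNA, of which 12 were called higher in HBE and 2 lower, beside the 22.4% and 21.2% of all genes given above, with a median log2 fold of 1.84 against 0.01 for all genes. COL17A1, the hemidesmosome collagen, had 4462 reads in HBE NC and 186 in H1299 vector mRNA (log2 fold 4.37, 4.16 to 4.59), and SDC1, a syndecan of epithelial cells, 6430 and 111 (5.64, 5.37 to 5.93). NID1, a basement membrane linker, ran the other way with 5 and 171 reads, while its paralogue NID2 had 2903 and 51. Of 32 cytoplasmic partners such as talins and parvins, 31 had enough reads in mRNA, with 6 called higher, 10 lower and a median of -0.31, shares nearer those of all genes. Their median lay above 0 in cytosol (0.33, with 9 higher and 10 lower of 31) and in nuclear RNA (0.43, with 10 higher and 8 lower of 29). Among all genes 22.2% were called higher and 26.7% lower in cytosol (48.9% either way, median -0.13). In nuclear RNA these were 23.1% and 22.3% (45.3% either way, median 0.03).

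Where the transcripts sit was read from nuclear over cytosol within each cell group. After TMM scaling 16 of 26 members were called higher in nuclear RNA in H1299 vector and 0 lower, where 14.8% of all genes were called higher (27.5% either way). The numbers were 13 higher and 1 lower of 28 in H1299 FLII overexpression (17.9% higher among all genes, 36.2% either way), 12 higher and 1 lower of 20 in HBE NC (22.8%, 39.8% either way), and 13 higher and 0 lower of 22 in HBE knockdown (23.9%, 41.5% either way). The median log2 fold of the members was 1.46, 0.85, 2.05 and 2.11 in this order, and that of all genes -0.00, 0.05, 0.14 and 0.18. With total counts the all-gene medians became 0.32, 0.59, 0.66 and 0.73, and the members had medians of 1.78, 1.40, 2.59 and 2.67, with 19, 16, 15 and 16 called higher and 0 lower in each. The share of higher calls among all genes then moved from 53.9% to 80.8%, 49.4% to 83.8%, 57.3% to 88.3% and 57.5% to 87.5%. The members' median lay above that of all genes in each group under both scalings.

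Of 16 members with enough reads in all 4 groups, 9 were called higher in nuclear RNA in each, among them LAMB1, LAMB2, LAMB3, LAMC1, ITGA2, ITGA6, ITGAV and ITGB1. The share of all genes was 8.41%. Without the H1299 FLII overexpression libraries, whose cytosol library held more basal epithelial marker RNA, 11 of 16 were called in the other 3 groups, with LAMA3 and LAMA5 added, against 9.82% of all genes. ITGB1 had 2395 nuclear and 789 cytosol reads in H1299 vector, 2559 and 367 with FLII overexpression, 3568 and 237 in HBE NC and 3966 and 268 with knockdown. Its log2 folds were 1.83 (1.71 to 1.95), 2.21 (2.06 to 2.38), 3.06 (2.87 to 3.26) and 3.01 (2.83 to 3.20). LAMB1 had folds of 3.99 (3.38 to 4.74), 2.46 (1.98 to 3.01), 3.47 (3.06 to 3.93) and 3.51 (3.13 to 3.93). LAMA3 had 936 nuclear and 27 cytosol reads in HBE NC and 1546 and 43 with knockdown, which gave folds of 4.25 (3.72 to 4.88) and 4.28 (3.86 to 4.77).

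Other members had smaller folds or lay below 0. ITGB4 had folds of -0.26 (-0.53 to 0.01) in H1299 vector, 0.32 (0.27 to 0.38) in HBE NC and 0.26 (0.21 to 0.32) with knockdown. In H1299 FLII overexpression it was the 1 member called lower, at -1.24 (-1.50 to -0.98), from 203 nuclear and 319 cytosol reads, and that call was lost with total counts (-0.69). ITGB5 lay between -0.10 and 0.37 in the 4 groups. ITGA3 lay at 1.00 (0.94 to 1.07), which was called, 0.67 (0.59 to 0.74), 0.46 (0.41 to 0.51) and 0.35 (0.31 to 0.39). ITGAE was lower in HBE NC (-1.06, -1.47 to -0.65), a call also lost with total counts (-0.52), and stood at -0.38 with knockdown. The alpha and beta chains of a receptor could thus stand apart: ITGA6 had 2.77 (2.38 to 3.20) in HBE NC and its partner ITGB4 0.32.

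**Figure D4:**
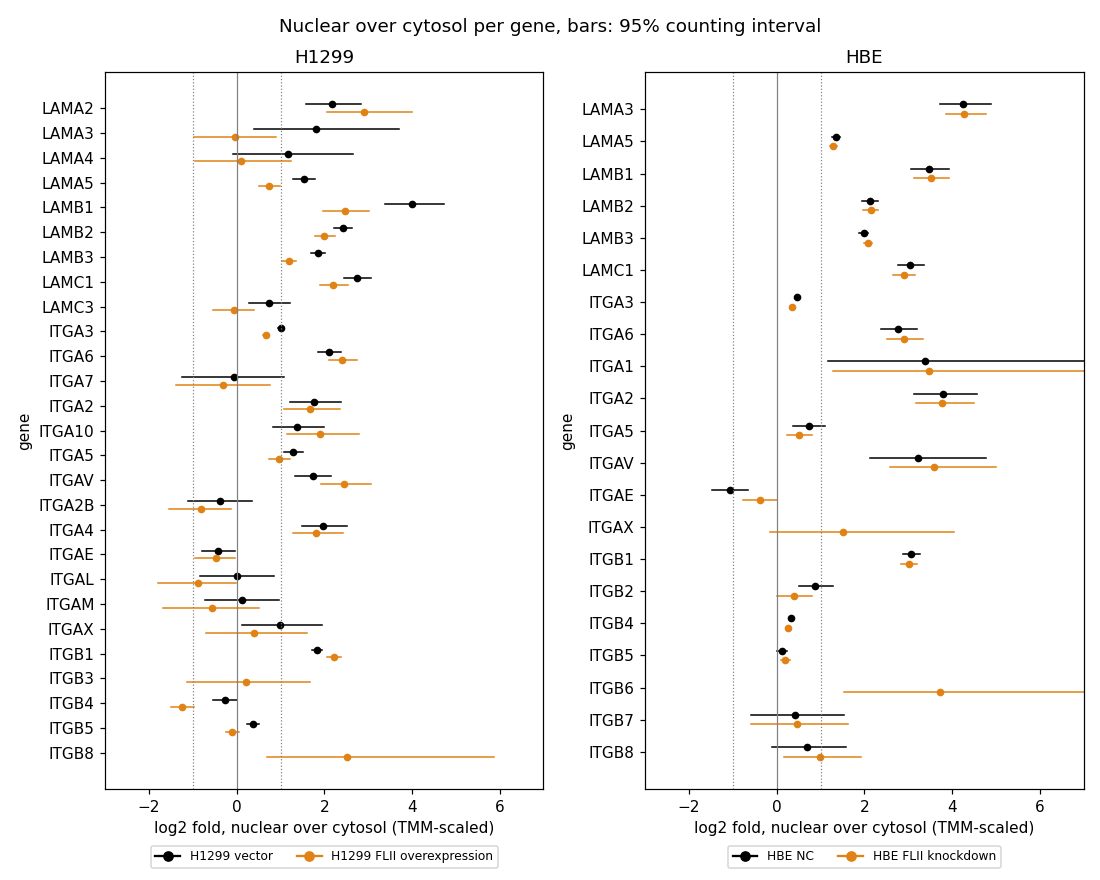
Log2 fold of nuclear over cytosol (TMM-scaled) with its 95% counting interval for the members described that had at least 20 reads over a pair, in H1299 (left: vector black, FLII overexpression orange) and HBE (right: NC black, knockdown orange). Dotted lines mark a fold of 2 and bars past 7 are cut at the frame. Laminin chains and ITGB1 lie right of the upper dotted line in most groups, while ITGB4, ITGB5 and ITGAE lie near 0 or below.

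Long transcripts were more nuclear in these libraries, and the members are long, from 2397 bases (ITGB6) to 11426 (LAMA5) as the files state them. Among genes of 4000 to 8000 bases, 18.8% of all were called higher in nuclear RNA in H1299 vector, against 12 of 19 members, and 31.9% in HBE NC, against 9 of 12 members. From 2000 to 4000 bases the shares of all genes were 14.4% and 21.1%, against 1 of 4 and 1 of 5 members, which is near the background. At 8000 bases or more they were 32.8% and 50.0%, against 3 of 3 and 2 of 3 members, and under 2000 bases, with no member, 7.62% and 10.3%. The part of length in the members' folds was not tested beyond these classes. The membrane and matrix partners had medians of 1.43 in H1299 vector and 1.49 in HBE NC, and the cytoplasmic partners -0.09 and 0.43. Of the latter, VASP, an actin elongation factor, was lower in nuclear RNA (-1.60, -1.67 to -1.53, and -1.62, -1.74 to -1.50). How cytosol and nuclei were parted is not given in the sources used here. The nuclear RNA markers MALAT1, NEAT1, KCNQ1OT1 and MEG3 summed to 647 CPM in nuclear and 90.1 in cytosol RNA of H1299 vector, and to 594 and 50.9 in HBE NC. In both groups MALAT1, NEAT1 and KCNQ1OT1 were called higher in nuclear RNA. MEG3 was not called, at log2 folds of 0.34 in H1299 vector and -0.16 in HBE NC.

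Each fraction was also set over the mRNA library of the same cell group, in comparisons that share the cytosol and nuclear libraries with the folds above. In H1299 vector 4 of 29 were called higher in cytosol and 18 lower (24.0% and 24.7% of all genes, 48.7% either way), and in HBE NC 1 of 22 higher and 14 lower (24.2% and 35.6%, 59.8% either way). The medians were -1.49 and -2.52, against -0.05 and -0.30 for all genes. In nuclear RNA over mRNA, H1299 vector had 5 higher and 5 lower of 29 (18.2% and 17.7%, 35.9% either way) and HBE NC 2 higher and 9 lower of 22 (14.9% and 19.7%, 34.6% either way), with medians of -0.36 and -0.61 against -0.03 and -0.05. ITGB1 in HBE NC stood at 209 RPKM in mRNA, 10.4 in cytosol and 126 in nuclear RNA. The depletion of the members was thus deeper in the cytosol library than in the nuclear library. The nuclear RNA markers named above summed to 409 CPM in H1299 vector mRNA and 2490 in HBE NC mRNA, so that in HBE NC they were higher in mRNA than in nuclear RNA (594), with MALAT1, NEAT1 and KCNQ1OT1 called lower in nuclear RNA over mRNA and MEG3 higher. In H1299 vector MALAT1 and MEG3 were called higher. What this difference between the mRNA and nuclear libraries adds to the members' folds was not tested. With total counts the cytosol calls were 3 higher and 23 lower in H1299 and 1 and 19 in HBE, with all-gene medians of -0.76 and -1.08, and the nuclear calls were 4 and 10 and 0 and 11, with all-gene medians of -0.41 and -0.33. The share of higher calls among all genes then fell to 21.4% from 49.4% and to 18.8% from 40.4% in cytosol, and to 28.6% from 50.7% and to 24.8% from 43.1% in nuclear RNA.

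No member was called between the FLII overexpression and vector libraries of H1299 in mRNA or nuclear RNA. In mRNA 0 of 27 were called, where 0.798% of all genes were, and the folds ran from -0.47 (ITGAM) to 0.48 (ITGA2B) on the log2 scale. In nuclear RNA 0 of 28 were called (0.599% of all genes), from -0.69 (ITGAM) to 0.89 (ITGB3), which rests on 14 and 7 reads. In deeply read members the mRNA intervals were narrow: ITGA3 stood at 0.04 (-0.00 to 0.08), ITGB1 at -0.04 (-0.11 to 0.04) and LAMA5 at -0.07 (-0.20 to 0.05). ITGB5 stood at 0.23 (0.12 to 0.33) and LAMB3 at -0.19 (-0.30 to -0.09), both under the threshold.

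In H1299 cytosol 3 of 26 members were called higher with FLII overexpression, all laminin chains, where 1.04% of all genes were called higher, 1.64% lower and 2.68% either way. Among them LAMA3 had 18 reads against 5 (log2 fold 2.36, 1.01 to 4.28) and LAMB1 37 against 21 (1.43, 0.65 to 2.31). Of the 3 calls 1 was left with at least 100 reads over the pair, a minimum that neither LAMA3 nor LAMB1 reaches, and 0 with the deposited RPKM plus 1. ITGB4 (319 against 274 reads; 0.86, 0.63 to 1.10) and LAMA5 (206 against 182; 0.82, 0.53 to 1.12) came next, under the threshold. ITGB1 stood at -0.46 (-0.64 to -0.28). The same library held basal epithelial markers at 151 CPM against 51.7 with vector, with all 11 detected in both and 9 against 6 at 10 reads or more. LAMA3, LAMB1, LAMA5 and ITGB4 were also called higher in HBE than in H1299 cytosol, and the part of such transcripts in the cytosol folds was not tested. The membrane and matrix partners had 7 of 18 called higher there, COL17A1 (55 against 38 reads; 1.16, 0.55 to 1.81) and SDC1 (119 against 60; 1.62, 1.17 to 2.10) among them, and the cytoplasmic partners 0 of 31. The change in nuclear over cytosol rests on the same libraries: 3 of 26 were called lower, LAMA3 (-1.74, -3.37 to -0.10) and LAMB1 (-1.41, -2.21 to -0.62) among them, against 1.01% of all genes.

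**Figure D5:**
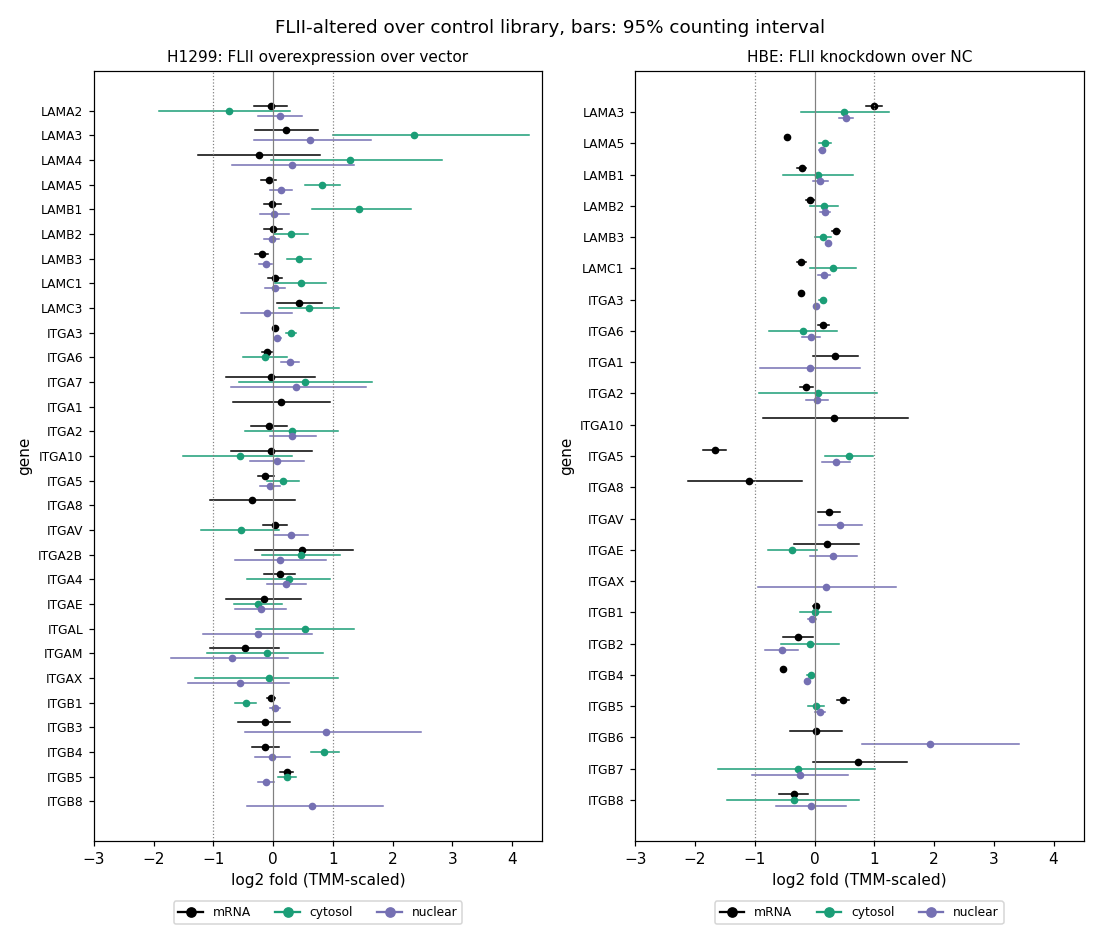
Log2 fold of the FLII-altered over the control library with its 95% counting interval in mRNA (black), cytosol (green) and nuclear RNA (purple), for H1299 (left) and HBE (right). Of the members described, those with at least 20 reads over a pair are drawn, and dotted lines mark a fold of 2. LAMA3 and LAMB1 lie past the line in H1299 cytosol, and ITGA5 at -1.67 and ITGA8 at -1.10 in HBE mRNA.

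With FLII knockdown in HBE, 2 of 23 members were called in mRNA, both lower and both alpha chains, where 2.93% of all genes were called lower, 2.02% higher and 4.95% either way. ITGA5 had 285 reads with knockdown and 917 with NC (8.93 against 26.1 RPKM; log2 fold -1.67, -1.87 to -1.48). In cytosol ITGA5 had 141 against 84 reads (0.57, 0.18 to 0.98) and in nuclear RNA 369 against 252 (0.36, 0.12 to 0.59), neither of them called. Its sign in mRNA was thus opposite to that in the fractions of the same cell groups. ITGA8, a nephronectin receptor chain, had 15 against 33 reads in mRNA (-1.10, -2.11 to -0.21). With total counts (-0.98) or 5 reads added (-0.92) ITGA8 was no longer called, and it is under a minimum of 100 reads.

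LAMA3 lay at the threshold in the same mRNA pair. It had 1505 reads with knockdown and 764 with NC (19.1 against 8.79 RPKM; 0.99, 0.86 to 1.12), just short of a fold of 2. With total counts it was called, at 1.12, and the calls became 2 higher and 1 lower, while the median of all genes moved from 0.01 to 0.14 and the share of higher calls from 40.8% to 57.9%. LAMB3, found in the same laminin, stood at 0.36 (0.30 to 0.42). In cytosol LAMA3 stood at 0.49 (-0.23 to 1.25) and LAMB3 at 0.14 (0.00 to 0.27). In nuclear RNA they stood at 0.53 (0.41 to 0.65) and 0.23 (0.19 to 0.28). LAMC1 stood at 55.2 RPKM with NC and 51.8 with knockdown in mRNA (-0.22, -0.29 to -0.15).

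ITGB4 and LAMA5, the chains that set HBE apart, stood below NC in mRNA by less than the threshold (-0.52, -0.57 to -0.48, and -0.46, -0.49 to -0.43). In cytosol they stood at -0.06 (-0.13 to 0.01) and 0.18 (0.07 to 0.28), and in nuclear RNA at -0.12 (-0.16 to -0.07) and 0.12 (0.07 to 0.17). ITGB5 stood at 0.47 (0.37 to 0.57) in mRNA, 0.02 in cytosol and 0.09 in nuclear RNA, and ITGB1 between -0.04 and 0.02 in all 3. In cytosol 0 of 18 members were called (1.25% of all genes). In nuclear RNA 1 of 22 was called higher, where 0.55% of all genes were (0.873% either way): ITGB6, with 32 against 7 reads (1.93, 0.79 to 3.42), which had 92 against 91 reads in mRNA (0.03, -0.41 to 0.46). The change of nuclear over cytosol called 0 of 18 (1.22% of all genes).

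Of the partners, FN1, the fibronectin ligand of ITGA5, stood out in this line. It had 6050 reads with knockdown and 263 with NC in mRNA (91.6 against 3.61 RPKM; log2 fold 4.53, 4.36 to 4.72), 521 against 222 in nuclear RNA (1.04, 0.81 to 1.27) and 9 against 11 in cytosol. It was the 1 membrane and matrix partner of 22 called in mRNA, and 0 of 30 cytoplasmic partners were called. Markers of other cell types differed in that mRNA pair, in both directions. The 5 endothelial markers summed to 87.2 CPM with knockdown and 34.1 with NC. But the 3 with enough reads had a median log2 fold of -0.59, and their folds ran from -0.84 to 1.69. CDH5 was called higher and the others lay below 0. The 7 mesenchymal markers summed to 341 and 230 CPM, with CDH2 called higher and VIM lower (4 with enough reads, median 0.19). The 6 leukocyte markers summed to 12.7 and 34.1 CPM, with CD14 called lower (-1.71), and the 6 fibroblast markers to 48.9 and 36.1, with none called. KDR and TEK were at 0 in both libraries, COL3A1 and LUM too. In cytosol the endothelial sums were 7.74 and 8.45 CPM and in nuclear RNA 26.7 and 19.6. Their part in the folds of the mRNA pair was not tested.

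The RNC libraries are given by label only. Members took 0.0469% of the reads in the library labelled H1299 vector, 0.127% in that labelled H1299 FLII overexpression, 0.222% in that labelled HBE NC and 0.113% in that labelled HBE knockdown. ITGB4 had 980, 12248, 6134 and 1360 reads in this order, ITGB2 3, 308, 157 and 21, and ITGA4 63, 1, 16 and 43. LAMA4 had 167, 7, 7 and 98 reads. So the library labelled H1299 FLII overexpression was high in the chains of HBE and low in those of H1299, and its basal epithelial markers summed to 4880 CPM, against 36.6, 1730 and 113 CPM in the libraries labelled H1299 vector, HBE NC and HBE knockdown. Between the labels, 10 members were called higher and 7 lower of 28 in H1299, where 49.1% of all genes were called, and 6 higher and 4 lower of 32 in HBE, where 30.6% were. The member shares, 17 of 28 and 10 of 32, lay a little above and at these backgrounds. With total counts the HBE calls became 2 higher and 10 lower, with the all-gene median moving from -0.09 to -0.44 and the share of higher calls from 61.7% to 37.7%, and the H1299 calls 11 and 7, with the all-gene median moving from 0.06 to 0.27.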

How the data were processed

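Groups of the polyA RNA libraries follow the sample titles. The deposited tables hold 23709 gene rows with a RefSeq entry, a stated length, reads and RPKM, per the file headers. The authors' deposited read counts are whole numbers, and the deposited RPKM equals count over length and the library's own total to within 0.19 reads. The submitters' processing notes name builds GRCh37 and hg19. The aligner, counter and strand setting were not given in the sources used here, so reads of overlapping or antisense genes could not be parted.

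Pairs of libraries were scaled with TMM (edgeR 4.0.16, R 4.3.3) and 0.5 reads were added for the log2 fold. Genes with at least 20 reads over a pair were kept, with a 95% interval from the exact Clopper-Pearson bounds on the pair's split of reads. Changes in nuclear over cytosol take an interval from inverse counts. A fold against 0 reads is given against a floor of 3 counts per library. Intervals and floors cover counting error only, since PCR duplicates cannot be seen in counts. There were 17 comparisons and 4 added after the data were seen (cytosol and nuclear RNA over mRNA). Calls were also run on simulated data with 200 changed genes. Those data held counting error only, and the changed genes had at least 100 reads over the pair. They cannot speak to variation between libraries or to changes at fewer reads. The 6 alternatives scaled by total counts or by DESeq2's size factors (version 1.42.0), or took 1 and 100 reads as minimum, a prior of 5 reads, and the deposited RPKM plus 1.

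The members and the lists of partners and markers were chosen with earlier results of these data known. Members are named by role; 1 member and 1 partner stay in the counts but are not reported here by name; beyond that, up to 6 called members per direction, by the interval bound nearest 0, and up to 4 partners per list were named. Other values of members were chosen after they were seen. Promoter windows are RefSeq's on GRCh38.p14, matched by symbol; no other coordinates are given.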

Additional observations from a re-analysis of the deposited data

Results flagged for a closer look

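In HBE, ITGA5 was lower with FLII knockdown in mRNA (log2 fold -1.67, 285 against 917 reads) and higher in cytosol (0.57, 141 against 84) and in nuclear RNA (0.36, 369 against 252). It drew attention because the mRNA library moved one way and the fraction libraries of the same cell groups the other, the latter by less than the threshold. The sample titles do not say whether the mRNA and fraction libraries came from the same cultures. With 1 library each, the difference between the kinds of RNA was not tested.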

How the results depend on the processing

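No paired analysis was possible because each group is 1 library and its replicate number carries no pairing. For the same reason no library could be left out of a group. Of the counts of called members under the alternatives, those for fractions over mRNA and for the 4 nuclear over cytosol pairs together being chosen after seeing the data, 121 totals of either direction stayed within 1.5 times the value reported and 18 did not. The larger direction changed side 7 times, in 4 results. With total counts, 0 higher and 2 lower in HBE mRNA became 2 and 1, 6 and 4 in HBE RNC became 2 and 10, and 12 and 7 between the lines in cytosol became 9 and 10. With the deposited RPKM plus 1, HBE mRNA became 2 and 1 and HBE RNC 0 and 4. Of members not overlapping between the lines, 8 higher in HBE and 9 in H1299 became 6 and 4 with at least 300 reads and 10 and 8 over the control libraries only. With at least 100 reads over the pair, the calls were 1 instead of 3 in H1299 cytosol and in its nuclear over cytosol change, 1 instead of 2 in HBE mRNA, 0 instead of 1 in HBE nuclear RNA, 4 instead of 10 in HBE RNC, 14 instead of 22 and 8 instead of 19 between the lines in mRNA and cytosol, and 4 instead of 10 in H1299 nuclear RNA over mRNA. Fewer members pass that minimum. With the deposited RPKM plus 1 they were 0 instead of 3 in H1299 cytosol and its change, 5 instead of 17 in H1299 RNC, 0 instead of 1 in HBE nuclear RNA, 4 instead of 10 in HBE RNC, 9 instead of 19 between the lines in cytosol and 6 instead of 10 in H1299 nuclear RNA over mRNA; the added 1 shrinks the folds of low genes by its construction. In HBE mRNA the calls were 4 with 1 read as the minimum and 1 with 5 reads added, instead of 2. With at least 300 reads over the 12 libraries, 10 members instead of 17 did not overlap between the lines. The members below 20 reads over a pair are limited by depth, ITGA11, LAMA1, LAMB4, ITGA9 and ITGAD among them.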

Other observations

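ITGA11, a collagen receptor chain of fibroblasts, was read almost only in the RNC libraries: 69 and 111 reads in those labelled H1299 vector and FLII overexpression and 665 and 260 in those labelled HBE NC and knockdown, against at most 2 in each of the other 12. ITGA8 was also readily seen there, with 148, 289, 115 and 114 reads, and ITGAE had 1074, 917, 1712 and 657 reads, or 7.39, 6.17, 12.9 and 6.37 RPKM, above its 1.58 to 4.82 RPKM in the other 12. ITGAL had 0 and 1 read in the H1299 mRNA libraries but 28 and 26 in cytosol and 24 and 21 in nuclear RNA.

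Several members lie next to each other in RefSeq's order of protein-coding genes. LAMB1 and LAMB4 are neighbours, and ITGAM, ITGAX and ITGAD follow each other. Neighbours did not share a level: LAMB1 had 679 reads and LAMB4 0 in H1299 vector mRNA, and ITGAM had 53 and ITGAX 2 there.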
